A study of Danio rerio with 12 samples.

Results

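*nrxn2b* and *mycbp2* are genes of the presynaptic side of the synapse that were measured on whole zebrafish embryos exposed to lead (Pb). The array carried 385000 probes for 37157 targets, a target being 1 transcript or predicted transcript. The 2 genes were found by matching the RefSeq transcript ID of each target to a gene symbol, and each matched 1 target, so 2 of 37157 targets and 23 of 385000 probes are described. *nrxn2b* (RefSeq transcript NM_001079984) had 12 probes and *mycbp2* (RefSeq transcript NM_001012247) had 11 probes. The study itself picked the human counterparts of both genes from these arrays as altered at 72 hours post fertilization (hpf), so their direction at that time is not independent evidence.

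Wild-type embryos of the AB strain were kept in 100 ppb Pb, given as lead acetate, or in 0 ppb (control) from about 1 hpf until they were collected at 72 hpf, the end of embryogenesis, or at 120 hpf. The 4 groups were Pb at 72 hpf, control at 72 hpf, Pb at 120 hpf, and control at 120 hpf. Each group had 3 arrays, 12 in all, and each array held RNA of 1 pool of 50 whole embryos, labeled by the study as 1 biological replicate. In such pools fewer cells that express a gene and less of its RNA per cell cannot be told apart, and the spread between individual embryos was not measured.

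Neurexins are adhesion proteins of the presynaptic membrane that reach across the synaptic cleft to partners such as neuroligins, and in mammals they help to place calcium channels and the release machinery. Neurexin genes give long alpha and shorter beta forms from separate promoters and are heavily spliced, so a set of probes along a neurexin transcript can read more than 1 form. MYCBP2 is a very large E3 ubiquitin ligase of the PHR family, named for mammalian Phr1, *Drosophila* Highwire, and *Caenorhabditis elegans* RPM-1. PHR ligases limit the kinase DLK, the product of *map3k12*, and shape axons and presynaptic terminals in worm, fly, and mouse. In zebrafish, mutants of this gene, known as esrom, have defects in the projection of retinal axons to the tectum.

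A level here is the mean log2 intensity over the probes of a target after quantile normalization of the 12 arrays. In Pb-treated embryos at 72 hpf, the level of *nrxn2b* was 7.28, 9.66, and 9.44 for replicates 1, 2, and 3. In control embryos at 72 hpf, it was 9.13, 10.08, and 9.94. The array of Pb replicate 1 was the lowest of the 12 arrays, and the levels of the other Pb arrays lay within the range of the controls. At 120 hpf, *nrxn2b* was at 10.11, 7.89, and 9.32 in Pb-treated embryos and at 9.63, 9.67, and 8.96 in control embryos. Here Pb replicate 1 was the highest array and Pb replicate 2 the lowest, with all controls between them.

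*mycbp2* was at a log2 level of 10.91, 11.41, and 11.22 in Pb-treated embryos and 11.88, 11.42, and 11.52 in control embryos at 72 hpf. All 3 Pb arrays were below all 3 control arrays, with Pb replicate 2 and control replicate 2 almost level. Pb replicate 2 was below control replicate 2 at only 3 of 11 probes, and at 1 of them by −1.35 on the log2 scale. The separation of the groups rested on that probe. At 120 hpf, *mycbp2* was at 11.69, 10.42, and 11.33 in Pb-treated embryos and 11.48, 11.13, and 11.23 in control embryos. As with *nrxn2b*, the highest and the lowest arrays of that time were Pb replicates 1 and 2, and the groups overlapped.

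**Figure D1:**
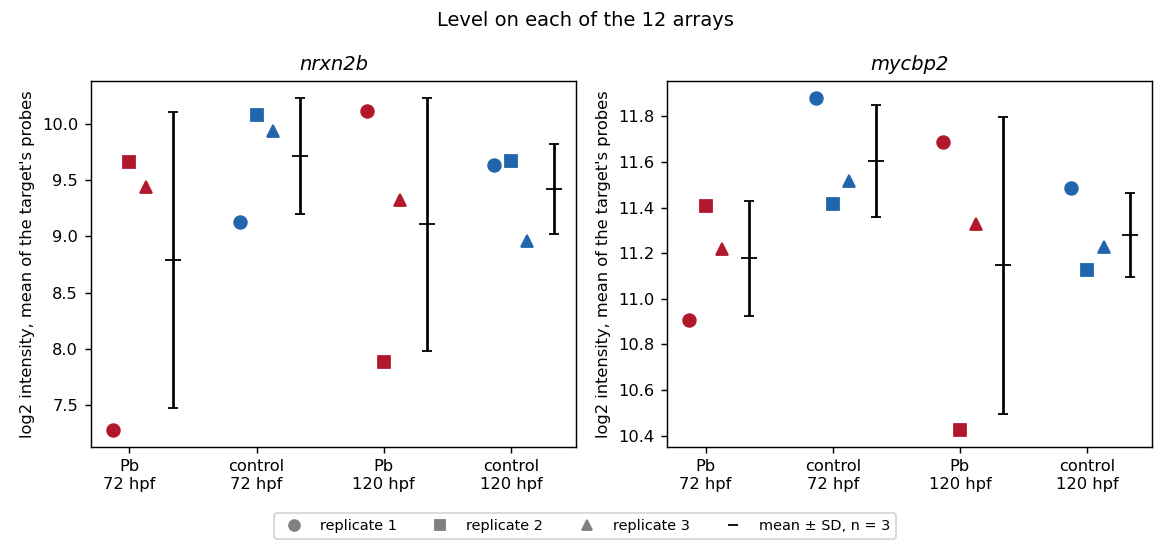
Level of *nrxn2b* and *mycbp2* (log2 intensity, mean of the probes of the target, vertical axis) on each array, by group, with the mean ± SD of the 3 arrays beside the points; red is Pb and blue is control. For *nrxn2b*, Pb replicate 1 at 72 hpf (7.28) and Pb replicate 2 at 120 hpf (7.89) lay below all other arrays, and for *mycbp2* the same 2 arrays (10.91 and 10.42) were the lowest.

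At 72 hpf, *nrxn2b* averaged 8.79 ± 1.32 in Pb-treated and 9.71 ± 0.51 in control embryos (log2, SD, n = 3 arrays each), a log2 fold change of −0.92 (standard error 0.62, 95% interval −2.27 to 0.43, adjusted p = 0.999 from limma). *mycbp2* averaged 11.18 ± 0.25 in Pb-treated and 11.61 ± 0.25 in control embryos, a log2 fold change of −0.43 (standard error 0.29, 95% interval −1.06 to 0.21, adjusted p = 0.999 from limma). Neither gene passed the threshold of 0.05, and 0% of all targets did (0 of 37157 by limma, with 566 at an unadjusted p below 0.05). The intervals reach from more than 2-fold lower to higher with Pb for both genes. Among the fold changes of all targets, that of *nrxn2b* stood at the 1.2 percentile and that of *mycbp2* at the 8.49 percentile. For the level of *mycbp2*, whose groups did not overlap, an exact two-sided permutation test gave p = 0.1, the smallest that 3 against 3 arrays allow. That separation rested on 1 probe of *mycbp2*, and 1.92% of all targets also had every Pb array below every control array.

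At 120 hpf, *nrxn2b* averaged 9.11 ± 1.13 in Pb-treated and 9.42 ± 0.40 in control embryos, a log2 fold change of −0.32 (standard error 0.62, 95% interval −1.67 to 1.04, adjusted p = 1 from limma). *mycbp2* averaged 11.15 ± 0.65 in Pb-treated and 11.28 ± 0.18 in control embryos, a log2 fold change of −0.13 (standard error 0.29, 95% interval −0.77 to 0.50, adjusted p = 1 from limma). Neither passed, nor did any target (0% of 37157, with 112 at an unadjusted p below 0.05). Every Pb array was below every control array for neither gene, against 1.82% of all targets. The spread between Pb replicates, an SD of 1.13 for *nrxn2b*, exceeded the difference between the groups.

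Whether the Pb effect differed between stages was tested as the log2 fold change at 120 hpf minus that at 72 hpf. This difference was 0.60 (95% interval −1.31 to 2.52) for *nrxn2b* and 0.29 (95% interval −0.60 to 1.19) for *mycbp2*, with adjusted p = 1 from limma for each. For *mycbp2* it was 0.02 without Pb replicate 1 at 120 hpf and 0.66 without Pb replicate 2 at 120 hpf. The difference was past the threshold for 0% of all targets (0 of 37157 by limma, with 75 at an unadjusted p below 0.05). The controls and the Pb arrays of each time point enter this difference as well as the comparisons above.

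The methods of the study use 2 criteria, and neither gene met either of them at either time on these levels. The first asks for an unadjusted p of at most 0.1 between the groups with a minimum mean fold change. The other asks for that fold change with the same sign in all 3 replicate pairs. The study made gene calls with RMA, counted altered probes, and then merged those of the same gene. The levels here are plain means over the probes of a target and are not the study's values. Whether its calls for the human counterparts came from these same 2 targets was not checked, and most targets stayed unnamed here. Over all targets, 244 met the first and 87 met the other at 72 hpf, and 81 and 12 did so at 120 hpf.

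Between the stages, neither gene passed the test in control or in Pb-treated embryos. In control embryos *nrxn2b* differed by −0.29 on the log2 scale between 120 and 72 hpf (95% interval −1.64 to 1.06, adjusted p = 0.874 from limma). *mycbp2* differed by −0.32 in the same comparison (95% interval −0.96 to 0.31, adjusted p = 0.645 from limma). With Pb the differences were 0.31 for *nrxn2b* (95% interval −1.04 to 1.66) and −0.03 for *mycbp2* (95% interval −0.66 to 0.60). Of all targets, 4.75% passed between the stages in controls and 2.96% with Pb. The order of the mean levels for *nrxn2b* was control at 72 hpf, control at 120 hpf, Pb at 120 hpf, and Pb at 72 hpf, and every step was smaller than the larger SD of its neighbors. For *mycbp2* the order was control at 72 hpf, control at 120 hpf, Pb at 72 hpf, and Pb at 120 hpf. Its step between the control groups was larger than either SD but their arrays overlapped, and the other steps were within the SDs.

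A pair is the Pb and the control array of 1 replicate number, and the pairs show how unevenly the differences were spread. At 72 hpf, the log2 ratio of Pb to control for *nrxn2b* was −1.85 in pair 1, −0.42 in pair 2, and −0.50 in pair 3. At 120 hpf, it was 0.48, −1.78, and 0.36. For *mycbp2*, the log2 ratios were −0.98, −0.01, and −0.30 at 72 hpf and 0.20, −0.70, and 0.10 at 120 hpf. Thus both genes were lowest in pair 1 at 72 hpf and in pair 2 at 120 hpf, and at 120 hpf both were higher with Pb in the other pairs. Without Pb replicate 1, the difference at 72 hpf was −0.16 for *nrxn2b* and −0.29 for *mycbp2*. Without Pb replicate 2, the difference at 120 hpf was 0.29 for *nrxn2b* and 0.23 for *mycbp2*, so the direction turned for both genes. The array left out at each time was picked as the lowest Pb array, so the difference had to rise. Other omissions moved it down. Without Pb replicate 2 at 72 hpf it was −1.35 for *nrxn2b* and −0.54 for *mycbp2*. Without Pb replicate 1 at 120 hpf it was −0.82 and −0.40.

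The probes show where along the transcripts these arrays were low. The number that ends each probe ID was read as the position of the probe along its target, in nucleotides (nt). The probes of *nrxn2b* ran from 296 to 6406 nt, and those of *mycbp2* from 3269 to 13771 nt, with 10 of 11 in the last 3082 nt. These are among the longest targets of the array, with the position of the last probe at the 99.5 percentile for *nrxn2b* and the 99.9 percentile for *mycbp2*. Each probe is set only against itself on other arrays.

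For *nrxn2b* in pair 1 at 72 hpf, the 10 probes that lay 1390 nt or more before the last probe had log2 ratios of −3.30 to −0.50 (mean −2.20). The 2 probes at the end, 449 nt apart, had log2 ratios of −0.02 and −0.15 (mean −0.08) in that pair. In pair 2 at 120 hpf, the same 10 probes had log2 ratios of −2.94 to −0.86 (mean −2.17), and the 2 end probes −0.09 and 0.41 (mean 0.16). So in the 2 pairs with a low Pb array, the transcript read lower with Pb over most of its length and close to control at its end. The 10 probes averaged −0.54 and −0.51 in pairs 2 and 3 at 72 hpf, and 0.63 and 0.50 in pairs 1 and 3 at 120 hpf.

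The deposited intensities, before any further processing, show the same, read within pairs because the deposited values were comparable only there. The *nrxn2b* probe at 3968 nt had intensities of 195, 1525, and 918 in Pb-treated embryos and 1882, 1915, and 1941 in control embryos at 72 hpf. At 120 hpf, it had 2291, 221, and 1377 in Pb-treated embryos and 1597, 1523, and 978 in control embryos. The last probe, at 6406 nt, had 1576, 1689, and 1982 in Pb-treated embryos at 72 hpf, and 1756, 1528, and 934 in control embryos. The probe at 3968 nt was thus several-fold dimmer on each low Pb array than on its control, and the last probe was not. The level of the last probe differed by 0.37 (log2, Pb minus control) at 72 hpf, with an exact two-sided permutation p of 0.4, and by 0.29 at 120 hpf, with an exact p of 0.3. The probe at 296 nt was dim, at the 1.6 percentile of all probes, and its intensity stayed between 22.15 and 114.79 on all arrays.

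*mycbp2* had the same order along its length in those pairs. In pair 1 at 72 hpf, its probe at 3269 nt, the only one far from the end, had a log2 ratio of −3.29. The next probe, at 10689 nt, had −1.80, and the last, at 13771 nt, had 0.16. In pair 2 at 120 hpf, the log2 ratio was −3.05 at 3269 nt, −1.14 at 10689 nt, and 0.04 at 13771 nt. The 9 probes at 12597 nt or before averaged −1.15 in pair 1 at 72 hpf and −0.90 in pair 2 at 120 hpf, whereas the 2 nearest the end averaged −0.20 and 0.16. A steep fitted slope of *mycbp2* was not limited to the 2 low Pb arrays. The slope was 0.61 log2 units per kb on Pb replicate 1 at 72 hpf and 0.51 on Pb replicate 2 at 120 hpf. On Pb replicate 3 at 120 hpf it was 0.60, against 0.083 to 0.385 on the remaining arrays. Each slope was fitted over all 11 probes and leaned on the distant probe at 3269 nt. On Pb replicate 3 at 120 hpf, that probe was at a log2 value of 5.83 and the others at 10.08 to 12.93. The slope of that array therefore does not show a rise along the other probes.

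The probe of *mycbp2* at 3269 nt had intensities of 104, 512, and 513 in Pb-treated embryos at 72 hpf, against 745, 1234, and 1124 in control embryos. At 120 hpf, it had 1020, 48.6, and 58.2 in Pb-treated embryos and 585, 431, and 152 in control embryos. Pb was lower than control in all 3 pairs at 72 hpf and in pairs 2 and 3 at 120 hpf. After normalization, this probe was at a log2 value of 9.83 on Pb replicate 1 at 120 hpf. That was higher than on every control of that time (9.02, 9.06, and 7.44). The last probe, at 13771 nt, had 10914.9, 2852, and 1973 in Pb-treated embryos at 72 hpf, against 9688, 2724, and 4841 in control embryos. It was lower with Pb only in pair 3.

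**Figure D2:**
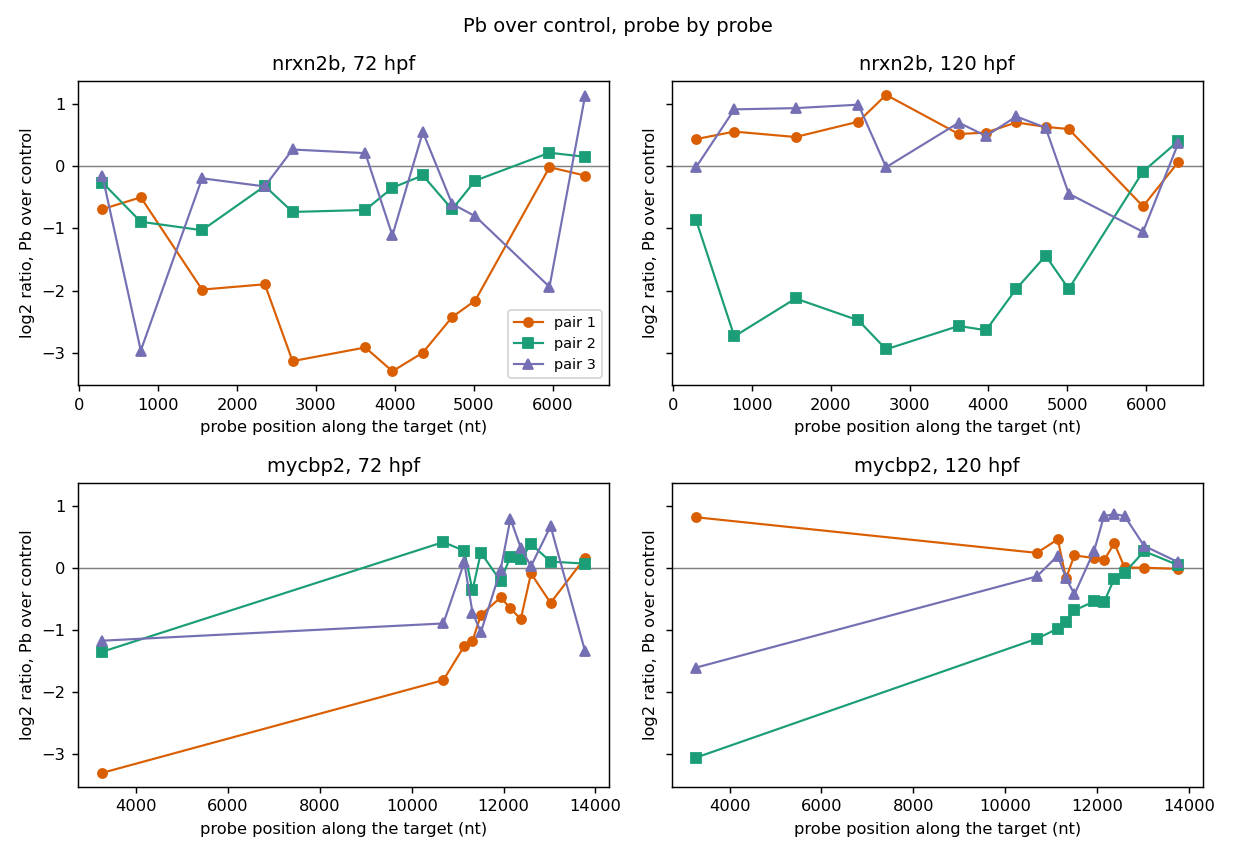
Log2 ratio of Pb to control (vertical axis) for each probe of *nrxn2b* (top) and *mycbp2* (bottom) by its position along the target in nt (horizontal axis), with 1 line per replicate pair at 72 hpf (left) and 120 hpf (right). Pair 1 at 72 hpf and pair 2 at 120 hpf run low, to −3.30 for *nrxn2b* and −3.29 for *mycbp2*, and return to near 0 at the last probe.

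Counted over probes, the mean of the Pb arrays was below that of the controls for 11 of 12 *nrxn2b* probes and 8 of 11 *mycbp2* probes at 72 hpf, and for 11 of 12 and 6 of 11 at 120 hpf. The ratio was below 0 in all 3 pairs for 7 *nrxn2b* probes and 3 *mycbp2* probes at 72 hpf, and for 1 probe of each gene at 120 hpf. The shares of all probes with these 2 patterns were not counted. Targets with a last probe at 5000 nt or beyond also had medians below 0 in all 3 pairs at 72 hpf (−0.91, −0.16, and −0.24). Probes of 1 target read the same RNA and are no replicates. All 3 Pb arrays were below all 3 control arrays for 1 *nrxn2b* probe (the dim one at 296 nt) and 1 *mycbp2* probe (at 11323 nt) at 72 hpf, against 2.34% of all probes. At 120 hpf, no probe of either gene had this pattern, against 2.95% of all probes. Counts this small allow no reading against the background.

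Splitting each target into its first and last parts, 6 probes each for *nrxn2b* and 5 each for *mycbp2*, put these differences on a scale of 1 value per array. In the first part of *mycbp2*, the level at 72 hpf was 10.30, 11.54, and 11.08 in Pb-treated embryos and 11.96, 11.70, and 11.82 in control embryos. The Pb arrays were all below the controls (Pb minus control −0.85, exact two-sided permutation p = 0.1, the smallest possible). This separation also rested on the probe at 3269 nt. In pair 2 that probe had a log2 ratio of −1.35, and the rest of the first part had −0.36 to 0.42. Over the levels of whole targets, 1.92% had this pattern at 72 hpf, and the share over first parts was not counted. In its last part, *mycbp2* averaged 11.28 ± 0.07 in Pb-treated and 11.32 ± 0.37 in control embryos (Pb minus control −0.04, exact p = 1). The first part minus the last part of *mycbp2* was −0.81 (Pb minus control) at 72 hpf (exact two-sided permutation p = 0.2) and −0.69 at 120 hpf (exact p = 0.3). Without Pb replicate 1 it was −0.45 at 72 hpf and −1.08 at 120 hpf. For *nrxn2b*, this contrast was −0.19 at 72 hpf (exact p = 0.5) and −0.08 at 120 hpf (exact p = 1). The low stretch of *nrxn2b* crossed the middle of the target into its last part.

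Other long targets moved the same way on the same arrays. Over the 461 targets whose last probe lay at 5000 nt or beyond, the median log2 ratio at 72 hpf was −0.91, −0.16, and −0.24 in pairs 1, 2, and 3, and at 120 hpf it was 0.19, −0.48, and 0.13. The 20176 targets with a last probe before 1000 nt had medians of 0.20, 0.02, and 0.04 at 72 hpf and −0.04, 0.08, and 0.02 at 120 hpf. The long targets other than *nrxn2b* and *mycbp2* had, in pair 1 at 72 hpf, a median log2 ratio of −0.13 over their probes within 500 nt of the last, −0.78 over those more than 2000 and up to 3000 nt away, and −1.43 beyond 4000 nt. In pair 2 at 120 hpf, these medians were 0.16, −0.42, and −0.89. In the other pairs, the lowest median of any bin of distance was −0.32, in pair 2 at 72 hpf beyond 4000 nt.

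*nrxn2b* lay below this median course at most of its probes. Its 8 probes between 1390 and 4849 nt from the last had log2 ratios of −3.30 to −1.90 in pair 1 at 72 hpf, and in pair 2 at 120 hpf the same probes were at −2.94 to −1.44. *mycbp2* also lay below the course at most of its probes. Its probe at 3269 nt was at −3.29 and −3.05 in those pairs, where the bin beyond 4000 nt was at −1.43 and −0.89. That bin has its midpoint at 5347 nt from the last probe. The probe at 3269 nt lay 10502 nt away, so the values are not from like distances. On the low arrays, signal rose along targets more steeply than elsewhere. This slope was taken over targets with at least 8 probes and a last probe at 3000 nt or beyond. It was 0.260 log2 units per kb for Pb replicate 1 at 72 hpf and 0.205 for Pb replicate 2 at 120 hpf, against −0.005 to 0.106 on the other 10 arrays. With each array's trend per kb removed, the log2 fold change at 72 hpf was −0.74 for *nrxn2b* and −0.27 for *mycbp2*. From the last 2 probes alone, it was −0.10 for *nrxn2b* and −0.15 for *mycbp2*. These are means of probes that differed. For *nrxn2b* they were at −0.58 (5957 nt) and 0.37 (6406 nt), and at −1.94 and 1.12 in pair 3. For *mycbp2* they were at 0.07 (13023 nt) and −0.37 (13771 nt). From probes within 500 nt of the last, the log2 fold change at 72 hpf was −0.10 for *nrxn2b*, where these are the same 2 probes. It was −0.37 for *mycbp2*, where this is the last probe alone.

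**Figure D3:**
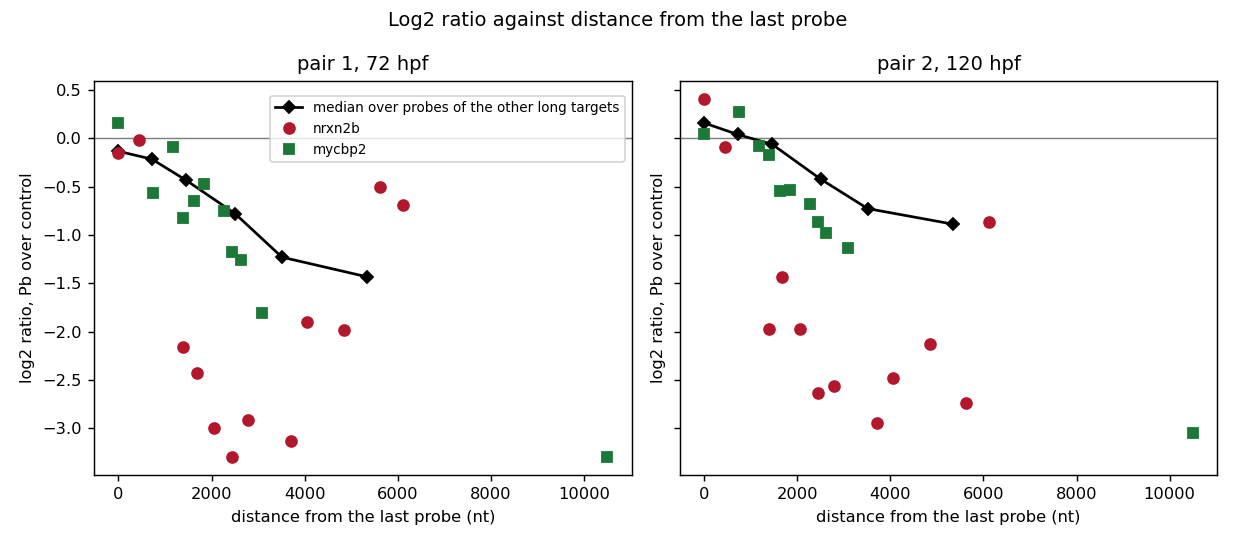
Log2 ratio of Pb to control (vertical axis) against distance from the last probe of the target in nt (horizontal axis) in pair 1 at 72 hpf (left) and pair 2 at 120 hpf (right), for *nrxn2b* (circles), *mycbp2* (squares), and the median over probes of the other long targets in bins of distance (diamonds). The median falls to −1.43 and −0.89 beyond 4000 nt, and most *nrxn2b* probes lie below it.

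Replicate arrays of *nrxn2b* varied more than those of most targets. Its SD within groups was 0.92 on the log2 scale, at the 98.6 percentile of all targets, whose median was 0.32. *mycbp2* had an SD within groups of 0.38, at the 64 percentile. The share of targets on an array with a lower level than *nrxn2b* was 29.1% for Pb replicate 1 at 72 hpf and 36.3% for Pb replicate 2 at 120 hpf, and 51.5% to 71% on the other arrays. For *mycbp2* these shares were 82.8% and 76.6% on the same 2 arrays and 86% to 92.7% elsewhere. These shares place an array's value for 1 target and do not rank the abundance of genes.

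Of the other genes of synaptic adhesion, 5 of 54 listed were named on the array: *nrxn3b* (a neurexin), *cbln2b* (a cerebellin, a secreted bridge from neurexin to its partners), *il1rapl1a* and *ptprdb* (a postsynaptic and a presynaptic adhesion receptor that bind each other in mammals), and *cadm3* (an adhesion molecule of the immunoglobulin family). None passed the test in any comparison, where 0% of all targets passed between Pb and control at each time, 4.75% between the stages in controls, and 2.96% with Pb. Their log2 fold changes at 72 hpf were −0.60 for *nrxn3b*, −0.01 for *cbln2b*, 0.03 for *il1rapl1a*, −0.18 for *ptprdb*, and −0.48 for *cadm3*. The median of the 5 was −0.18 at 72 hpf and −0.12 at 120 hpf, against 0.04 and 0.00 over all targets. By pair, the median was −0.41, 0.10, and −0.15 at 72 hpf and 0.06, −0.43, and −0.10 at 120 hpf. Without the 2 low Pb arrays, it was −0.20 at 72 hpf and 0.23 at 120 hpf, and from the last 2 probes it was −0.22 and 0.02 at those times.

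*nrxn3b*, the only other neurexin among the named targets, was also a long target, with a last probe at 7417 nt. Its level at 72 hpf was 10.01, 10.48, and 9.45 in Pb-treated embryos and 10.90, 10.66, and 10.18 in control embryos. At 120 hpf, it was 11.13, 9.26, and 10.54 in Pb-treated embryos and 11.07, 10.10, and 10.66 in control embryos, with Pb replicate 2 again the lowest array. Along its transcript, the log2 ratio in pair 1 at 72 hpf was −2.39 at its probe at 960 nt and 0.19 at its last probe. In pair 2 at 120 hpf, it was −2.14 and −0.28 at the same probes. In pair 3 at 72 hpf, the order was different, with 1.22 at 960 nt and −2.57 at the last probe.

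Of the genes of the active zone and vesicle release, 9 of 66 listed were named, and none passed in any comparison, against the same shares of all targets (0% between Pb and control, 4.75% and 2.96% between the stages). At 72 hpf, the log2 fold change was −0.14 for *erc1a* (ELKS, a scaffold of the active zone), 0.11 for *syn2a* (a synapsin, which tethers vesicles), and −0.18 for *sv2ba* (a vesicle glycoprotein). It was −0.11 for *napaa* and −0.43 for *napbb* (SNAP adaptors that help to take SNARE complexes apart), and −0.58 for *slc17a6a* (a vesicular glutamate transporter). The median of the 9 was −0.18 at 72 hpf, with 7 below 0, and −0.02 at 120 hpf, with 5 below 0. By pair, the median was −0.70, 0.12, and −0.21 at 72 hpf and 0.07, −0.12, and −0.30 at 120 hpf, so pair 3 and not pair 2 was the lowest at 120 hpf. Without the 2 low Pb arrays, the median was −0.04 at 72 hpf and −0.03 at 120 hpf, and from the last 2 probes it was −0.08 at 72 hpf.

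Around PHR ligases, 8 of 46 listed genes were named, and again none passed in any comparison, against 0% of all targets between Pb and control and 4.75% and 2.96% between the stages in controls and with Pb. As log2 fold changes at 72 hpf, the kinases *map3k12*, *map2k4b*, and *mapk10* were at −0.46, −0.23, and −0.42. *map3k12* encodes DLK, a known substrate of PHR ligases, *map2k4b* a kinase activated in that cascade, and *mapk10* the neuronal JNK. The small GTPases *rheb* and *rhebl1*, upstream of mTOR, were at −0.26 and −0.22. The netrin receptor *dcc* was at −0.96 (standard error 0.68), and *stmn2b*, a tubulin-binding protein of growing axons, at 0.06. *spata2*, an adaptor of ubiquitin signaling, was at −0.24. The median of the 8 was −0.25 at 72 hpf, with 7 below 0, and −0.05 at 120 hpf, with 5 below 0. By pair, it was −0.75, −0.12, and −0.03 at 72 hpf and 0.05, −0.60, and 0.17 at 120 hpf, and without the 2 low Pb arrays it was 0.01 at 72 hpf and 0.17 at 120 hpf. From the last 2 probes, it was −0.31 at 72 hpf and −0.03 at 120 hpf. Of 11 other very large E3 ubiquitin ligases, 0 had a named target here and none is analysed here.

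**Figure D4:**
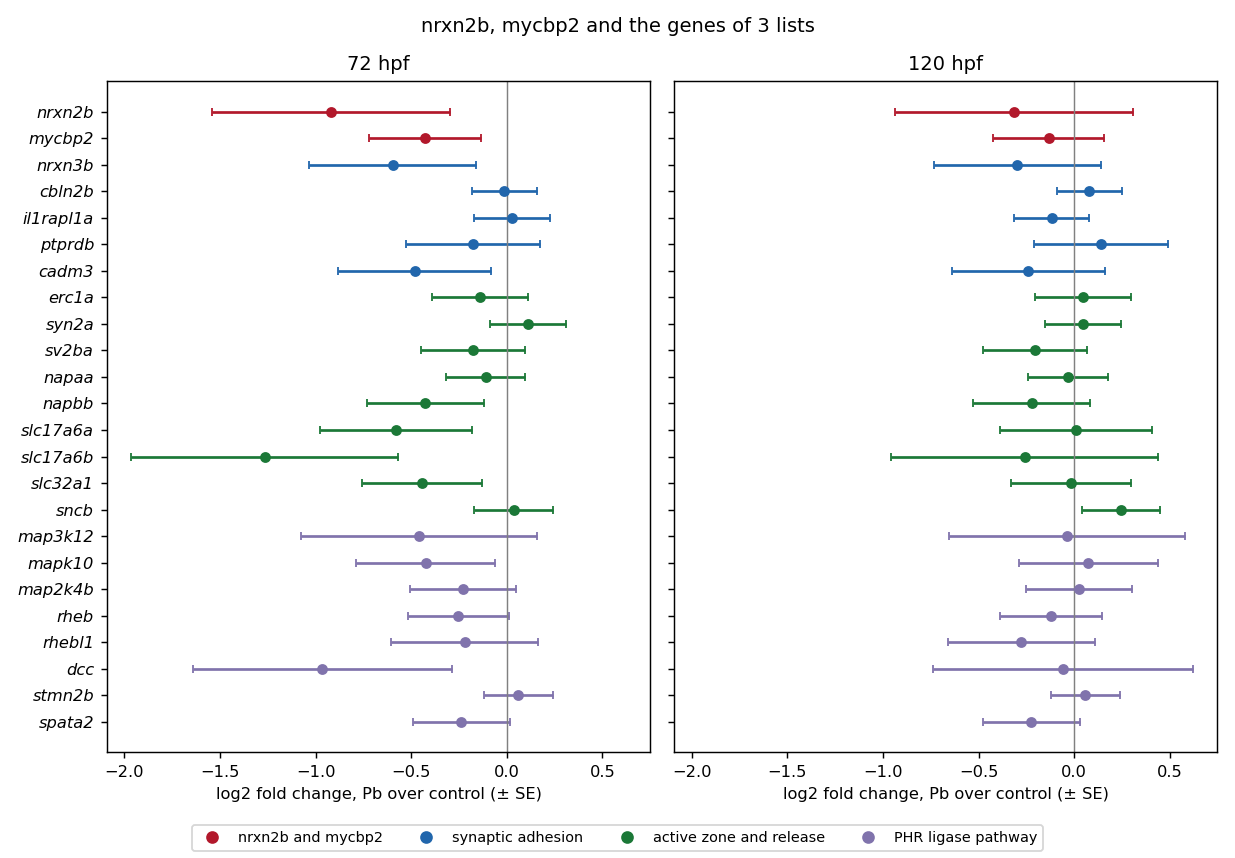
Log2 fold change of Pb over control with its standard error (limma, horizontal axis) for *nrxn2b*, *mycbp2*, and the named genes of synaptic adhesion, the active zone and release, and the PHR ligase pathway, at 72 hpf (left) and 120 hpf (right). At 72 hpf the estimates run from −1.27 (*slc17a6b*) to 0.11 (*syn2a*), and none passed the test at either time.

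The pool labels give whole embryos, and abundant markers of muscle (*mylpfb*, 99.9 percentile of all targets by mean level), neurons (*sncb*, 99.7), and red blood cells (*hbae3*, 99.3) were high throughout. Of 17 neuron markers listed, *stmn2b* and *sncb* were named. Their mean log2 level was 13.73 to 13.87 in Pb-treated and 13.69 to 13.85 in control embryos at 72 hpf, and 13.50 to 13.60 in Pb-treated and 13.30 to 13.49 in control embryos at 120 hpf. On Pb replicate 1 at 72 hpf, the mean of these 2 neuron markers was 13.87, against 13.85 on its paired control. On Pb replicate 2 at 120 hpf, it was 13.50, against 13.30 on its paired control. *sncb* by itself had a log2 ratio of −0.09 in pair 1 at 72 hpf. Both markers are short targets, with last probes at 1410 and 413 nt. Of 10 glia markers only *fabp7a* was named, at 12.76 to 13.42 in Pb-treated and 12.60 to 13.19 in control embryos at 72 hpf. Muscle markers (2 of 11 named) were at 14.80 to 15.25 in Pb-treated and 15.07 to 15.29 in control embryos at 72 hpf. Of lens markers 3 of 7 were named, of retina 2 of 8, of red blood cells 1 of 8, and of skin and liver 0 of 6 each, and none of those named passed between Pb and control at either time.

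Among the named targets whose levels followed those of *nrxn2b* most closely over the 12 arrays were *llgl1* (Pearson r = 0.97), *dscama* (0.97), *rfx3* (0.96), and *bcl9l* (0.96), out of 2662 compared. Without the 2 low Pb arrays, r for the same genes was 0.78, 0.80, 0.79, and 0.79 over 10 arrays. For *mycbp2* they were *dab1a* (0.92), *dab1b* (0.92), *cadm3* (0.91), *srgap2* (0.90), and *klhl13* (0.90), and without those arrays 0.72, 0.75, 0.72, 0.82, and 0.61. The correlation of *nrxn2b* with *mycbp2* was 0.70 over 12 arrays and 0.14 over 10. These points share the groups, the stages, and the slope of each array along its targets, so the values describe likeness on these arrays only. The most similar targets were not all long. Their last probes lay from 855 nt (*cadm3*) to 6494 nt (*dscama*), with *llgl1* at 933 nt and *dab1b* at 998 nt. The median over named targets was 1509 nt.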

How the data were processed

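Total RNA of the pools was labeled with Cy3 and hybridized to one-color NimbleGen arrays. The authors deposited 1 linear intensity per probe and array, and their methods state quantile normalization and RMA (version not given in the sources used here). The values per probe were not summarized per target, and the normalization held within each pair of Pb and control arrays only. They were therefore put on a log2 scale and quantile normalized again across all 12 arrays, and the level of a target is the mean of its probes, with no background subtracted and no dim target left out. The number of arrays limits the precision.

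All 12 arrays were fitted together with lmFit and eBayes of limma 3.58.1 in R 4.3.3 (tables read with data.table, version 1.17.8) without a replicate block, with Benjamini-Hochberg adjustment across the 37157 targets and a threshold of 0.05. Single values per array were compared by exact permutation. Both criteria of the study, 1 of which uses the methods' t-test, were run on these levels as well. Targets were named through the platform annotation (2626) and current RefSeq transcripts (37), and 34494 stayed unnamed. The genes and the lists were chosen with earlier results of these data known. The text names both genes, all named members of the adhesion and PHR lists, the first 6 measured of the release list, and the 5 targets most like each gene, of which 1 is not reported here. The range of the figure of lists also names *slc17a6b*, which was chosen after its value was seen.

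To see whether equal replicate numbers pair the arrays, the deviations of Pb and control arrays from their group means were correlated. The correlation was 0.548, 0.434, and 0.268 at 120 hpf, so the numbers were taken to pair those arrays, and 0.452, 0.402, and −0.069 at 72 hpf, where number 3 was not paired by this measure. The limma fit was also run on simulated levels with independent noise on each array. That run does not test calls on arrays that share pairs or differ in slope, as these do. Alternatives were a replicate block, median polish, fits to 1 time point, probes within 500 nt of the last, values as deposited, median centering, a trend along relative position removed, omission of the lowest 25% of targets, weights per array, a variance trend, and each array left out. Chosen after the data were seen were the omission of both low Pb arrays, the last 2 probes, and a trend per kb removed. No sequence is shown, since no sequence source was used here.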

Additional observations from a re-analysis of the deposited data

How the results depend on the processing

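No alternative brought *nrxn2b*, *mycbp2*, or any target past the threshold between Pb and control at either time or in the difference between times. With the replicate block, *nrxn2b* stayed at −0.92 and *mycbp2* at −0.43 at 72 hpf (adjusted p = 0.8 from limma for each). The block changed no call between Pb and control or in the difference between times. At 72 hpf, all alternatives kept both genes below 0. With each array left out in turn, *nrxn2b* ranged from −1.35 to −0.16 and *mycbp2* from −0.54 to −0.29, and array weights gave −0.58 for *nrxn2b* and −0.25 for *mycbp2*. The weights were uneven, at 13.04 for control replicate 3 at 120 hpf and 0.27 to 1.84 on the other arrays. Values with array weights that involve the controls at 120 hpf therefore lean on 1 array. For *mycbp2*, median polish gave −0.23 and probes within 500 nt of the last −0.37.

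The direction at 120 hpf did not hold. *nrxn2b* was at 0.48 with array weights and 0.29 without both low Pb arrays, and ranged from −0.82 to 0.29 with single arrays left out. *mycbp2* was at 0.039 from probes within 500 nt of the last, 0.12 from the last 2 probes, 0.14 with array weights, and 0.23 without both low Pb arrays, and ranged from −0.40 to 0.23 with single arrays left out. The difference between times for *nrxn2b* was −0.053 from probes within 500 nt and from the last 2 probes, and ranged from −0.15 to 1.21 with single arrays left out. For *mycbp2* this difference ranged from 0.024 to 0.66. For 120 against 72 hpf in controls, *nrxn2b* was at 0.42 from both of those sets of probes and −0.79 with array weights, and ranged from −0.58 (without control replicate 1 at 72 hpf) to −0.061 (without control replicate 3 at 120 hpf). *mycbp2* was there at 0.11 from probes within 500 nt, and ranged from −0.43 to −0.19 with single arrays left out. For the same comparison with Pb, *nrxn2b* ranged from −0.44 to 0.92 with single arrays left out. *mycbp2* was there at 0.51 from probes within 500 nt, 0.026 with median centering, 0.088 with array weights, 0.20 without both low Pb arrays, and 0.079 from the last 2 probes, and ranged from −0.30 to 0.33. The first part minus the last part of *nrxn2b* ranged from −0.47 to 0.041 at 72 hpf and from −0.40 to 0.16 at 120 hpf with single arrays left out, and that of *mycbp2* from −1.13 to −0.45 at 72 hpf and from −1.08 to −0.47 at 120 hpf.

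Targets past the threshold for 120 against 72 hpf in controls numbered 1765, but 499 with values as deposited, 1082 with median centering, 13841 with array weights, 3342 without both low Pb arrays, 738 from the last 2 probes, and 747 to 2302 with single arrays left out. In the count with array weights, control replicate 3 at 120 hpf had a weight of 13.04. With Pb the targets past the threshold numbered 1101, but 366 with values as deposited, 513 from the last 2 probes, and 580 to 1363 with single arrays left out. Values as deposited moved the median of all targets between stages to −0.33 in controls and with Pb. The causes of these shifts were not tested. The 3 arrays per group limit the precision.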
